A study of Mus musculus with 8 samples.

Results

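The 9 genes described here, Akt1, Akt2, Pik3ca, Pdpk1, Mtor, Rptor, Tsc2, Foxo3 and Tcl1, encode parts of the PI3K, Akt and mTOR signalling pathway. They were chosen by name for their roles, with earlier results of these data known, out of 55421 genes in a count table of mouse embryonic stem cells. All 9 passed the filter on low counts, as did 14647 genes in all. The cells were an E14 line of 129/Ola background, derived from blastocysts, in which the microRNA cluster miR-290-295 had been knocked out. Every group, the control included, carries this knockout, so no value below compares knockout with wild-type cells. The cells grew on gelatin in 15% serum with LIF, a cytokine that maintains self-renewal, at 100 U/ml. They were transfected with a siPOOL, a set of many siRNAs that all target the same transcript, at 5 nM with Lipofectamine RNAiMax, and RNA was taken 36 h later.

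The 4 groups were siTfap4, siWiz, siZic2 and the negative control siPOOL, siNeg, with 2 libraries in each. Each of the targeted transcripts encodes a nuclear factor: Tfap4 is a transcription factor of the helix-loop-helix family that recognises E-box DNA motifs, while Wiz and Zic2 are zinc finger proteins. The question put to the 9 genes is whether their transcript levels differed between each siPOOL and the control, and between siPOOLs. Libraries were made from the 3′ ends of polyadenylated RNA with a QuantSeq kit, so a count is a read from a transcript end and is not scaled to length.

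In cells of this kind, insulin, insulin-like growth factors and other ligands act through receptor tyrosine kinases and their adaptors on PI3K, which makes a membrane lipid that recruits Pdpk1 and the Akt kinases. Pdpk1 phosphorylates Akt, and active Akt phosphorylates the FoxO factors, which then leave the nucleus, and Tsc2, whose complex holds back the small GTPase Rheb. Rheb activates the kinase complex mTORC1, built on Mtor and Rptor, which also needs amino acid signals received at the lysosome. This pathway is known in mouse embryonic stem cells for its part in growth, survival and self-renewal.

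Library totals ran from 8326675 to 13788856 counts. The targeted transcript stood at 39.4% of control in siTfap4 (Tfap4, 12.0 and 15.7 CPM against 33.4 and 37.1; adjusted p = 0.00417, edgeR, quasi-likelihood test, Benjamini-Hochberg adjusted). Wiz stood at 38.0% of control in siWiz (16.8 and 19.7 CPM against 49.9 and 46.1 in siNeg, log2 fold change -1.40, SE 0.24). Zic2 stood at 59.5% of control in siZic2. Neither passed the test after adjustment over all tested genes (edgeR, adjusted p = 0.708 for Wiz and 0.9997 for Zic2). Zic2 was at 2.15 and 1.83 CPM in siZic2 and at 4.49 and 2.21 in siNeg, so that against siNeg replicate 2 alone it stood at 90.0% of control. CPM express each count relative to its library's total after TMM scaling. Of 10 embryonic stem cell markers, all 10 were tested, and their summed level was 3561 to 3642 CPM in siNeg, 2745 to 2850 in siTfap4, 3169 to 4065 in siWiz and 3846 to 4192 in siZic2. In siTfap4 against siNeg 2 of these 10 fell, Dppa5a (mean 6.49 against 432.5 CPM, adjusted p = 0.000365) and Nanog (127.6 against 356.7, adjusted p = 0.0142), and Pou5f1 rose (52.7 against 26.0, adjusted p = 0.0159). Markers of other cell types were lower in sum: 7 of 10 trophectoderm markers were tested, and the 10 summed to 160 to 296 CPM over all libraries. Tfap2c made up most of that sum in each library, at 140 and 266 CPM in siTfap4 and 178 and 252 in siNeg. For primitive endoderm 7 of 9 were tested, with a sum of 37.1 to 55.3 CPM in siTfap4 and 29.4 to 39.0 in siNeg. Lama1 made up most of each of these sums, at 42.0 and 28.0 CPM in siTfap4 and 23.3 and 20.4 in siNeg. In siTfap4 against siNeg 0 of the 7 rose and 1 fell (edgeR). Sox7 was at a mean of 0.417 CPM in siTfap4 and 1.97 in siNeg. Mesoderm (4 of 6 tested), neural (5 of 6) and fibroblast (1 of 8) markers summed to 8.68 to 14.9, 74.3 to 104 and 7.04 to 12.0 CPM, and 1 neural and 1 fibroblast marker had no count in any library. Tubb3 made up most of the neural sum in each library. In bulk samples such as these, fewer cells of a type and less RNA per cell cannot be told apart. The part of these marker levels in the results below was not tested.

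Akt1 fell in siTfap4 and was the only 1 of the 9 genes called against the control (1 of 9, 11.1%, at an adjusted p under 0.05). Among all tested genes, 15.9% were called in that comparison, 11.7% lower and 4.24% higher. With 1 call among 9 genes, the share of the 9 cannot be set apart from the background. At an unadjusted p under 0.05, 4 of the 9 stood apart (Akt1, Akt2, Pik3ca and Mtor) against a background of 32.4%, and DESeq2 also called 1 of the 9 against a background of 18.7%. The median log2 fold change of the 9 was -0.10, with a range of -1.20 to 0.58, beside a median of 0.01 over all tested genes.

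Neither other siPOOL gave a call. Against siNeg, 0 of the 9 were called in siWiz and 0 in siZic2 by edgeR, and 0 of the 9 had an unadjusted p under 0.05 in either. The background there was 0% called in both, with 1.82% of genes in siWiz and 0.587% in siZic2 at an unadjusted p under 0.05. DESeq2 called none of the 9 in either comparison, beside 0.00683% of all genes in siWiz and 0% in siZic2. The medians of the 9 were -0.07 in siWiz, with a range of -0.19 to 0.32, and 0.00 in siZic2, with a range of -0.23 to 0.21, and the median of all genes was 0.00 in each. These comparisons share the siNeg libraries, so their values are given side by side and were not correlated.

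**Figure D1:**
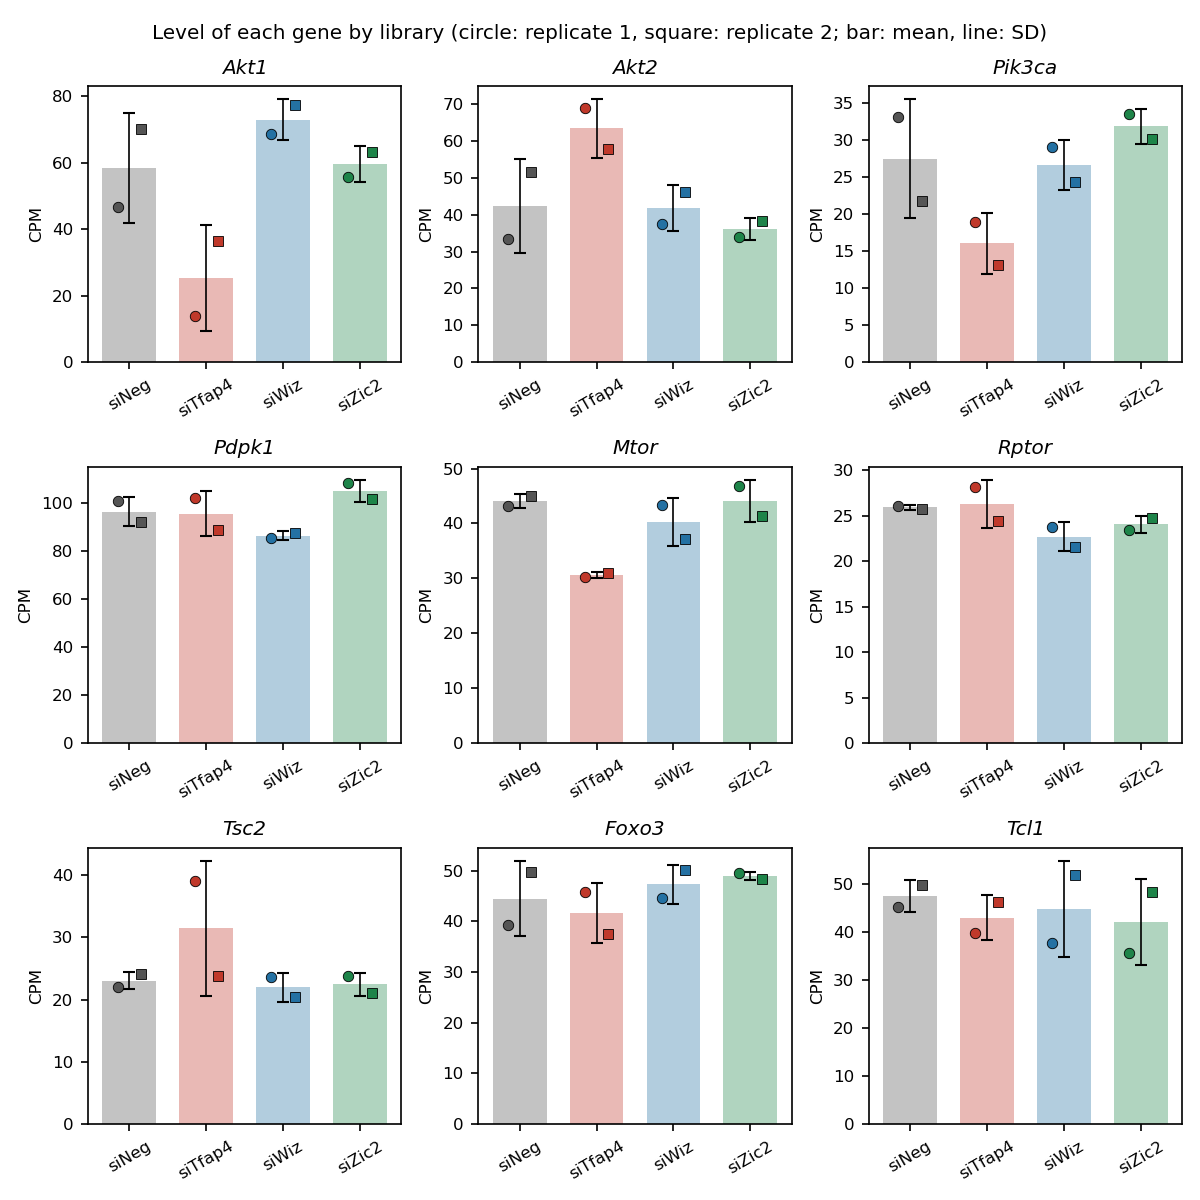
CPM (vertical axes, from 0) of the 9 genes in the 8 libraries, 1 panel per gene and 1 position per siPOOL, with circles for replicate 1, squares for replicate 2, bars for the mean and lines for the SD of 2 libraries. Akt1, Pik3ca and Mtor lie lower in both siTfap4 libraries than in every other library, Akt2 lies higher, and the 2 siTfap4 libraries stand apart from each other for Akt1 and Tsc2.

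The Akt kinases are serine/threonine kinases that act downstream of PI3K. Akt1 (ENSMUSG00000001729) lies on the minus strand of chromosome 12, from 112653821 to 112674884 in GRCm38. Its level in siNeg was 46.8 and 70.1 CPM, from 563 and 729 counts, and in siTfap4 it was 14.0 and 36.6 CPM, from 113 and 312 counts. In siWiz it was 68.6 and 77.4 CPM and in siZic2 55.9 and 63.4 CPM. Both siTfap4 libraries thus lay below all 6 others, and replicate 1 lay far below replicate 2. The means were 25.3 ± 16.0 CPM in siTfap4 (SD, n = 2) and 58.4 ± 16.4 in siNeg, a log2 fold change of -1.20 (SE 0.36) which is 2.31-fold lower, with a 95% interval of 25.4% to 74.0% of control (edgeR, adjusted p = 0.0379).

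The Akt1 call rests on the spread of few libraries. Without siTfap4 replicate 1 the log2 fold change was -0.68 (adjusted p = 0.240), and without siTfap4 replicate 2 it was -2.07 (adjusted p = 0.000895). Leaving out siNeg replicate 1 gave -1.45 (adjusted p = 0.0546) and leaving out siNeg replicate 2 gave -0.90 (adjusted p = 0.161). Without either siZic2 library, whose Akt1 level does not enter the difference but whose spread enters the test, the value stayed at -1.20 with adjusted p = 0.0533 and 0.0525. The sign was negative in each of these fits.

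Akt2 (ENSMUSG00000004056), the Akt kinase best known for the insulin response, lies on the plus strand of chromosome 7, from 27591552 to 27640826. It was at 33.4 and 51.5 CPM in siNeg, 69.1 and 57.8 in siTfap4, 37.4 and 46.1 in siWiz, and 34.0 and 38.3 in siZic2. The lowest siTfap4 library lay above the highest of the other 6. The log2 difference between siTfap4 and siNeg was 0.58 (SE 0.26), with an interval of 101.6% to 220.0% of control, and it did not pass the test (edgeR, adjusted p = 0.141).

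**Figure D2:**
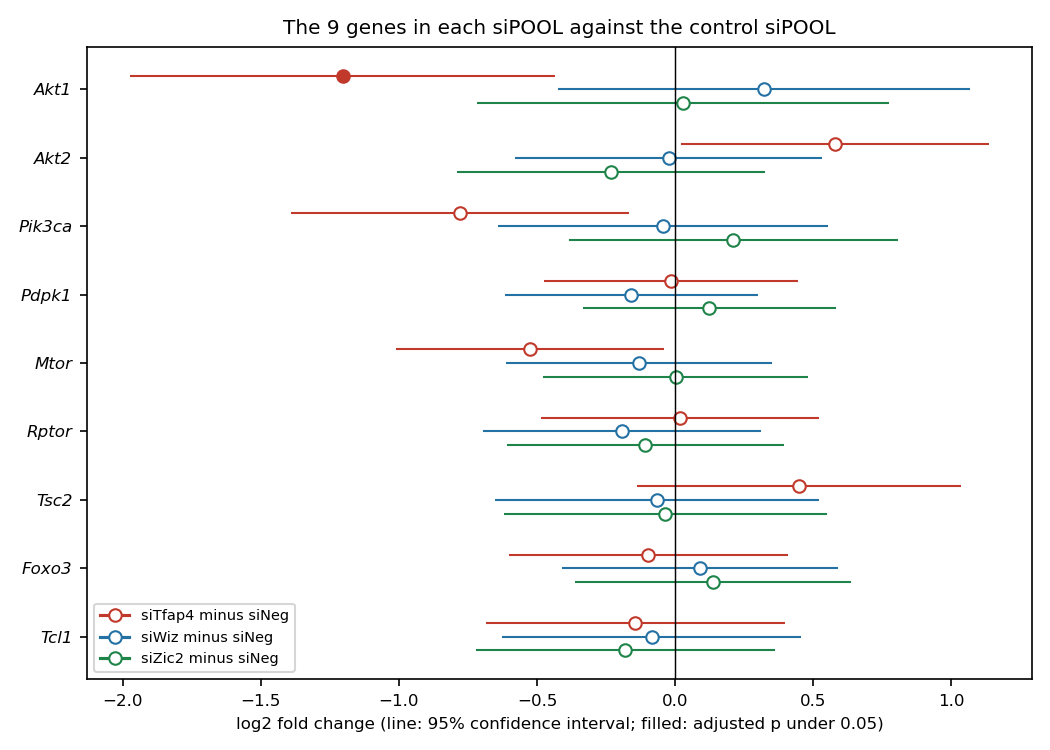
Log2 fold change of each gene (horizontal axis) in siTfap4, siWiz and siZic2, each against siNeg, with 95% confidence intervals as lines and filled points for an adjusted p under 0.05. The filled point is Akt1 in siTfap4, at -1.20, while the siWiz and siZic2 points lie between -0.23 and 0.32.

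Since Akt1 lay lower and Akt2 higher in siTfap4, their counts were also set against each other within a library. Akt1 made up 58.3% and 57.6% of the summed Akt1 and Akt2 counts in the siNeg libraries, with exact 95% binomial intervals of 55.2% to 61.5% and 54.9% to 60.4%. In siTfap4 it made up 16.9% (14.1% to 19.9%) and 38.8% (35.4% to 42.2%). In siWiz it was 64.7% and 62.7%, and in siZic2 62.1% and 62.3%. The siTfap4 shares lay apart from the other 6, which ran from 57.6% to 64.7%, and from each other. Akt1 counts outnumbered Akt2 counts in every library outside siTfap4, and Akt2 counts outnumbered Akt1 counts in both siTfap4 libraries. The share counts reads from transcript ends, not molecules, and the intervals cover counting error only. No test of the share was run, because it combines levels already tested.

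**Figure D3:**
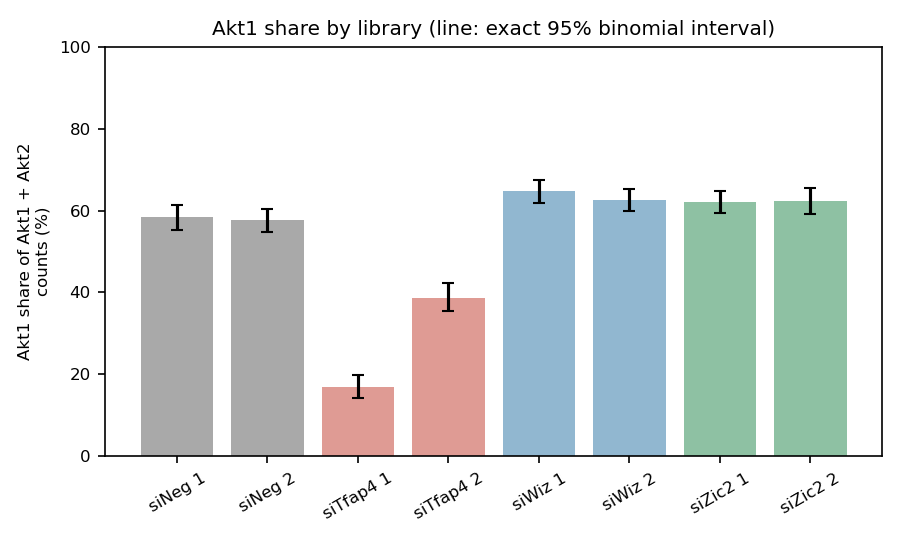
Akt1 counts as a percentage of Akt1 plus Akt2 counts (vertical axis, 0 to 100%) in each of the 8 libraries, with exact 95% binomial intervals as lines. The siTfap4 libraries sit at 16.9% and 38.8%, below the range of 57.6% to 64.7% in the other 6.

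The promoter windows of Akt1, Akt2 and Tsc2 are shown because Tfap4 binds E-boxes and because the Akt1 and Akt2 differences in siTfap4 had opposite signs, while Tsc2 holds the E-box form that Tfap4 is known to prefer. They are from RefSeq on GRCm38.p6, 250 bases before to 50 after a transcription start, written 5′ to 3′ on the gene's strand, with each CANNTG in capitals. The Akt1 window shown is chr12:112674835-112675134 on the minus strand and the Akt2 window shown is chr7:27591302-27591601 on the plus strand. Akt1 and Akt2 also have windows at other annotated starts, which are not shown. The Tsc2 window is chr17:24632578-24632877 on the minus strand.
Akt1: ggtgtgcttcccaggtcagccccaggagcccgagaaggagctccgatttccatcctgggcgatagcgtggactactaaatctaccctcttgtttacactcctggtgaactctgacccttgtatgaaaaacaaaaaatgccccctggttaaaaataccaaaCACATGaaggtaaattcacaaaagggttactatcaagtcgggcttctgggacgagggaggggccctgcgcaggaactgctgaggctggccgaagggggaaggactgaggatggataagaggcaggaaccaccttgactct
Akt2: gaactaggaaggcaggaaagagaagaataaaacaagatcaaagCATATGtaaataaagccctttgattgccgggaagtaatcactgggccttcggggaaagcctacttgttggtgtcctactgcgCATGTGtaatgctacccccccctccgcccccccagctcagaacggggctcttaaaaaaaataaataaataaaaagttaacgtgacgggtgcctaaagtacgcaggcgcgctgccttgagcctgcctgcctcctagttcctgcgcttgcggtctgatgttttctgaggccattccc
Tsc2: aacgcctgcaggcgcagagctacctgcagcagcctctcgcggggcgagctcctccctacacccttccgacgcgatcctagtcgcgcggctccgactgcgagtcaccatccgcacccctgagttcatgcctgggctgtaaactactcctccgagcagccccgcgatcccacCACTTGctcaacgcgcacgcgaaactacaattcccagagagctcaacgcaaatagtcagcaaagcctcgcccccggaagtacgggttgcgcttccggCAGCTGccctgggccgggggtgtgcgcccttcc

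All 9 genes were matched by symbol, with 14 windows in all. The motif CANNTG, which reads the same on both strands, was in 8 of the 14 windows and in 72.3% of 32851 RefSeq windows of the same length. Its form CAGCTG was in 2 of the 14 and in 16.3% of all windows, so 2 of 14 is near the background. Those 2 were the Tsc2 window, where CAGCTG lies 17 bases after the start site, and a window at an alternative Akt2 start, chr7:27607086-27607385, where it lies at -229. The Akt1 windows held no CAGCTG. The Akt1 window not shown, chr12:112674227-112674526, held no CANNTG, nor did the alternative Akt2 window chr7:27596580-27596879. A match gives letters in a window and not a binding site, and binding was not measured.

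Tcl1 and Pdpk1 act on Akt directly. Pdpk1 (ENSMUSG00000024122; chromosome 17, minus strand, 24073680 to 24150924) is the kinase that phosphorylates the activation loop of Akt. Its level was 100.5 and 92.1 CPM in siNeg, 102.0 and 88.8 in siTfap4, 85.1 and 87.5 in siWiz, and 108.0 and 101.6 in siZic2. The siTfap4 libraries lay on either side of the siNeg libraries, with a log2 difference of -0.01 (SE 0.21) and an interval of 72.0% to 136.2% of control (edgeR, adjusted p = 0.972). Both siWiz libraries lay below the other 6, at a log2 difference from siNeg of -0.16 that did not pass the test (adjusted p = 1.00).

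Tcl1 (ENSMUSG00000041359; chromosome 12, minus strand, 105216750 to 105222793) encodes a small protein that binds Akt and raises its activity, and is a known marker of mouse embryonic stem cells. It was at 45.1 and 49.8 CPM in siNeg, 39.7 and 46.2 in siTfap4, 37.7 and 51.8 in siWiz, and 35.6 and 48.3 in siZic2. The groups overlapped, and the spread within siWiz and siZic2 was wider than the gap between any 2 group means. The log2 difference in siTfap4 was -0.14 (SE 0.25; edgeR, adjusted p = 0.729), with an interval of 62.1% to 131.8% of control.

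Pik3ca (ENSMUSG00000027665; chromosome 3, plus strand, 32397671 to 32468486) encodes a catalytic subunit of PI3K. It was at 33.2 and 21.8 CPM in siNeg, 19.0 and 13.1 in siTfap4, 29.1 and 24.3 in siWiz, and 33.5 and 30.1 in siZic2. Both siTfap4 libraries lay below the other 6, but the nearer siNeg library was close to them. The log2 difference from siNeg was -0.78 (SE 0.29), with an interval of 38.1% to 89.2% of control, and missed the threshold (edgeR, adjusted p = 0.0781). It was -1.06 (adjusted p = 0.0418) without siNeg replicate 2 and -0.43 (adjusted p = 0.456) without siNeg replicate 1.

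Mtor (ENSMUSG00000028991; chromosome 4, plus strand, 148448611 to 148557683) encodes the kinase of both mTOR complexes. Its level was 43.1 and 45.0 CPM in siNeg, 30.3 and 31.0 in siTfap4, 43.3 and 37.2 in siWiz, and 46.8 and 41.4 in siZic2. The 2 siTfap4 libraries lay close together and below the other 6. Means were 30.6 ± 0.494 CPM in siTfap4 (SD, n = 2) and 44.1 ± 1.29 in siNeg, a log2 difference of -0.53 (SE 0.23) that did not pass the test (edgeR, adjusted p = 0.127), with an interval of 49.6% to 97.4% of control. The model takes much of its error from all genes, so a small spread within a gene's own pairs carries limited weight in the test.

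Rptor (ENSMUSG00000025583; chromosome 11, plus strand, 119602905 to 119899576) encodes the subunit that brings substrates to mTORC1. It was at 26.1 and 25.8 CPM in siNeg, 28.2 and 24.4 in siTfap4, 23.8 and 21.6 in siWiz, and 23.4 and 24.7 in siZic2. The siTfap4 libraries lay on either side of the siNeg libraries, with a log2 difference of 0.02 (SE 0.23; edgeR, adjusted p = 0.966) and an interval of 71.4% to 143.6% of control.

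Tsc2 (ENSMUSG00000002496; chromosome 17, minus strand, 24595816 to 24632630) encodes the part of the TSC complex that turns Rheb off. It was at 22.0 and 24.0 CPM in siNeg, 39.1 and 23.8 in siTfap4, 23.6 and 20.3 in siWiz, and 23.8 and 21.1 in siZic2. The high siTfap4 library stood alone and the other lay within the siNeg range. The log2 difference was 0.45 (SE 0.27; edgeR, adjusted p = 0.273), and it was 0.04 without siTfap4 replicate 1.

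The counts given to Tsc2 are uncertain for another reason. Its 3′ end overlaps that of Pkd1, a gene of the opposite strand, by 693 bases, and all 251 words of 50 bases in the last 300 bases of its transcript also lie in Pkd1. The strand setting of the counting is not given in the sources used here, so reads of the 2 genes might not be told apart. Pkd1 was at 14.6 and 14.9 CPM in siNeg and 27.4 and 19.1 in siTfap4, with a log2 difference of 0.66 (SE 0.29; edgeR, adjusted p = 0.136). Its high library was the same as that of Tsc2. The other 8 genes shared 0 of 251 such words with any other gene.

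Foxo3 (ENSMUSG00000048756; chromosome 10, minus strand, 42181841 to 42276755) encodes a transcription factor that Akt keeps out of the nucleus. It was at 39.2 and 49.7 CPM in siNeg, 45.8 and 37.4 in siTfap4, 44.6 and 50.04 in siWiz, and 49.4 and 48.3 in siZic2. The groups overlapped, with a log2 difference in siTfap4 of -0.10 (SE 0.23; edgeR, adjusted p = 0.810) and an interval of 66.0% to 132.6% of control. RNA levels carry no information on where the protein lies or whether it is phosphorylated, and the same holds for the kinases above.

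Setting siTfap4 against the other siPOOLs used libraries other than siNeg on the second side, but the same siTfap4 libraries. Against siWiz, 1 of the 9 was called: Akt1 was lower, with a log2 fold change of -1.53 (SE 0.36; edgeR, adjusted p = 0.0146), beside 10.4% of all genes called lower. Against siZic2, 3 of the 9 were called. Akt1 (-1.23, SE 0.36, adjusted p = 0.0263) and Pik3ca (-0.99, SE 0.29, adjusted p = 0.0255) were lower, beside 14.7% of all genes. Akt2 was higher (0.81, SE 0.26, adjusted p = 0.0386), beside 8.41% of all genes. Mtor differed from siZic2 by -0.53 (adjusted p = 0.106) and Tsc2 by 0.48 (adjusted p = 0.210), neither past the threshold.

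These calls also moved with single libraries. Akt1 against siWiz was -1.0009 (adjusted p = 0.100) without siTfap4 replicate 1 and -1.61 (adjusted p = 0.0524) without siWiz replicate 1. Akt1 against siZic2 was -0.71 (adjusted p = 0.168) without siTfap4 replicate 1, and its adjusted p was 0.0704 and 0.112 without siZic2 replicates 1 and 2. Pik3ca against siZic2 lost its call without siTfap4 replicate 2 (-0.76, adjusted p = 0.101) and without siZic2 replicate 1 or 2 (adjusted p = 0.141 and 0.0856). Akt2 against siZic2 lost its call without siTfap4 replicate 1 (0.67, adjusted p = 0.189), without siZic2 replicate 1 or 2 (adjusted p = 0.250 and 0.140), and with library totals in place of TMM factors (0.73, adjusted p = 0.0505). With a correction for the GC content and length of transcripts, Akt2 against siZic2 was 0.47 (adjusted p = 0.125). Tsc2 was the reverse case: without siTfap4 replicate 2 it was 0.82 against siWiz (adjusted p = 0.0455) and 0.79 against siZic2 (adjusted p = 0.0458).

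Between siWiz and siZic2, 0 of the 9 were called and 0 by DESeq2, beside 0% of all genes with each tool and 2.62% at an unadjusted p under 0.05. The largest log2 differences of siWiz from siNeg were 0.32 for Akt1, with an interval of 74.5% to 209.6% of control, and -0.19 for Rptor (61.8% to 124.0%). In siZic2 they were -0.23 for Akt2 (57.9% to 125.4%) and 0.21 for Pik3ca (76.6% to 174.9%). Akt1 stood at 43.4% of control in siTfap4, with an interval of 25.4% to 74.0%. Its interval in siWiz began at 74.5% and that in siZic2 at 60.8%, so the siZic2 interval overlapped that of siTfap4. These comparisons describe the libraries labelled siWiz and siZic2 at the knockdown measured. Wiz was at 38.0% of control, with both siWiz libraries below both siNeg libraries, and Zic2 was at 59.5%. Neither passed the test after adjustment over all tested genes.

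**Figure D4:**
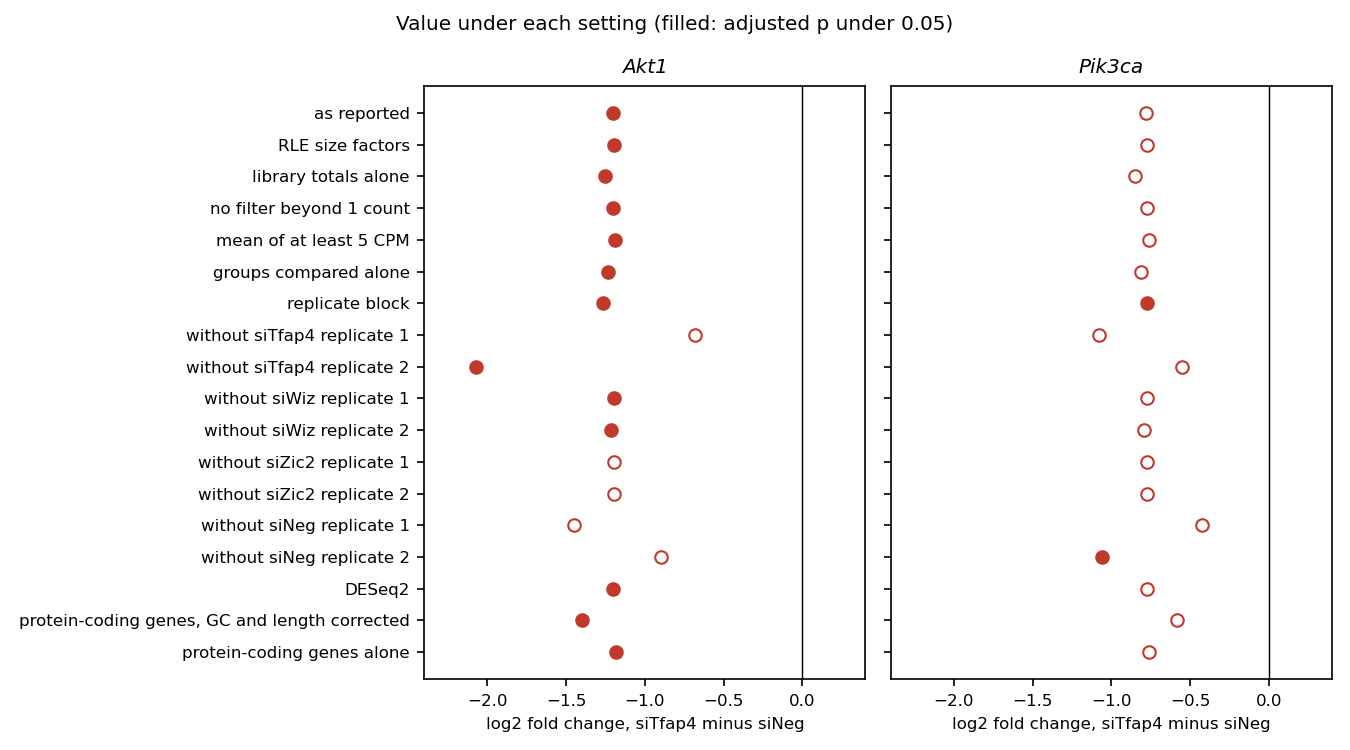
Log2 fold change of Akt1 and Pik3ca in siTfap4 against siNeg (horizontal axes) under each processing setting and with each library left out, with filled points for an adjusted p under 0.05. Every value lies below 0, and Akt1 runs from -2.07 without siTfap4 replicate 2 to -0.68 without siTfap4 replicate 1.

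A wider list of 134 pathway genes, without the 9, was also chosen by role with earlier results of these data known. It was read from the same comparison, and 123 of the 134 were tested. In siTfap4 against siNeg, 6 rose, 24 fell and 93 did not pass the test, so 24.4% were called beside 15.9% of all genes. Their median log2 fold change was -0.09 against 0.01. Without siTfap4 replicate 1 the count was 10, or 8.06%, beside 3.28% of all genes, and without siNeg replicate 1 it was 11, or 8.87%, beside 4.89%. These 10 and 11 were lower, as were 98.8% and 92.7% of all genes called in the same fits. In siWiz and in siZic2 0 of the 123 were called, with 1 and 0 at an unadjusted p under 0.05. With GC content and length corrected, 19 rose and 22 fell, and among all genes 1563 were then called higher and 1416 lower, in place of 621 and 1709. By role, the share called was at most 12.5% for the PI3K subunits, the phosphatases, the Mtor partners and the mTORC1 effectors, beside 15.9% of all genes. It was 18.2% for the TSC, Rheb and AMPK genes, 20.0% for the FoxO factors and other Akt substrates, and 30.8% for the receptors, adaptors and Ras proteins. These shares rest on 1 or 2 calls a list, and on 4 for the receptors, too few to set them apart from the background.

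**Figure D5:**
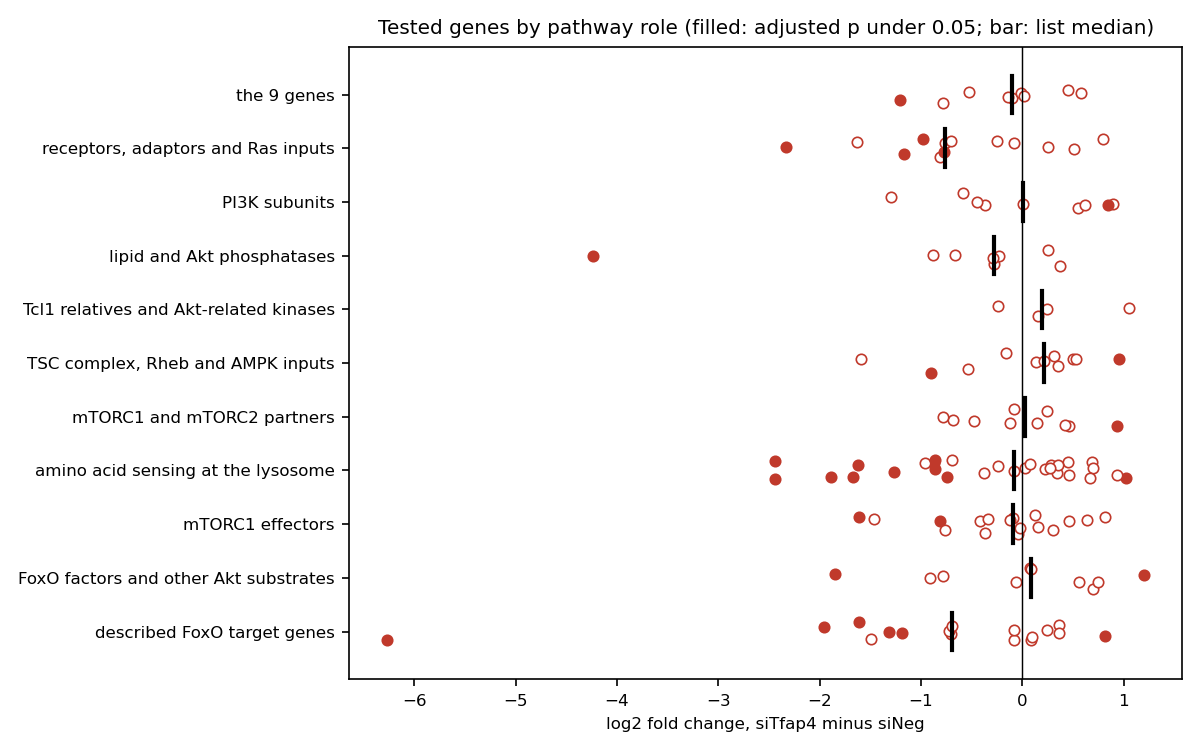
Log2 fold change in siTfap4 against siNeg (horizontal axis) of each tested gene of the pathway, in rows by role, with filled points for an adjusted p under 0.05 and a bar at each row's median. Filled points on the left are most numerous among the amino acid sensing genes, the longest list, where 10 of 29 fell. The points farthest left, Ccng2 and Inpp4a, are fitted values from 2 and 3 counts.

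Upstream of PI3K, 13 of 14 receptors, adaptors and Ras proteins were tested, of which 4 fell and 0 rose, with a median of -0.76. Gab1, an adaptor that docks PI3K at activated receptors, was at 197 and 119 CPM in siNeg and 29.5 and 33.4 in siTfap4, a log2 fold change of -2.33 (SE 0.35; edgeR, adjusted p = 0.00132). Kit, the receptor of stem cell factor, was at 56.4 and 38.8 CPM in siNeg and 20.1 and 22.3 in siTfap4 (-1.17, SE 0.26, adjusted p = 0.0115). Erbb3, a receptor with PI3K docking sites, was at 27.2 and 22.0 against 12.7 and 12.3 CPM (-0.98, SE 0.27, adjusted p = 0.0287). Nras was the other gene called lower (-0.78, SE 0.24; edgeR, adjusted p = 0.0434). It kept its call in 2 of the 8 fits that left out 1 library. Kit did not pass without siTfap4 replicate 1 or siNeg replicate 1 (adjusted p = 0.0828 and 0.113), nor did Erbb3 without either of them or siTfap4 replicate 2 (adjusted p = 0.129, 0.172 and 0.0541).

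Beside Pik3ca, 9 of 10 other PI3K subunits were tested, of which 1 rose. This was Pik3r2, a regulatory subunit, at 18.9 and 24.1 CPM in siNeg and 41.7 and 35.4 in siTfap4 (0.84, SE 0.25; edgeR, adjusted p = 0.0396). Its call was kept in 3 of the 8 fits that left out 1 library. It was lost without siTfap4 replicate 1, either siNeg library or either siZic2 library, and with GC content and length corrected (0.24, adjusted p = 0.418). Among 8 of 9 lipid and Akt phosphatases tested, 1 fell: Inpp4a, which removes a phosphate from a PI3K product, had 3 counts in siTfap4 and 82 in siNeg. That is 4.95% of control with a counting interval of 1.00% to 15.0% (adjusted p = 0.00308).

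Of 9 relatives of Tcl1 and kinases related to Akt, 4 were tested and 0 were called. Sgk2, a kinase of the SGK family, had the smallest p, at 0.748 and 0.577 CPM in siNeg (9 and 6 counts) and 1.74 and 1.06 in siTfap4 (14 and 9 counts). Its log2 difference was 1.05 (SE 0.71; edgeR, adjusted p = 0.324), from counts too low to set the libraries apart. The Tcl1b genes 1 to 5, relatives of Tcl1, were the 5 that did not pass the filter.

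Around Tsc2, 11 genes of the TSC complex, Rheb and the energy sensor AMPK were tested, with 1 higher and 1 lower. Prkag1, a regulatory subunit of AMPK, was at 43.0 and 57.0 CPM in siNeg and 117.9 and 75.5 in siTfap4 (0.95, SE 0.28; edgeR, adjusted p = 0.0379). Rheb, the GTPase that Tsc2 acts on, was at 48.6 and 42.0 CPM in siNeg and 16.9 and 31.4 in siTfap4 (-0.91, SE 0.28, adjusted p = 0.0458). In siTfap4 replicate 1, the library with the lowest Akt1 and the highest Tsc2, Rheb was lower and Prkag1 higher than in replicate 2. Without it neither passed (adjusted p = 0.305 for Prkag1 and 0.307 for Rheb), and neither did without siNeg replicate 1 (0.214 and 0.205). Rheb also missed the threshold without siNeg replicate 2 or any 1 of the siWiz and siZic2 libraries (adjusted p = 0.0528 to 0.0738).

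Among 10 partners of Mtor in its complexes, 1 rose: Mlst8, a subunit of both, was at 24.1 and 34.9 CPM in siNeg and 68.4 and 44.3 in siTfap4 (0.94, SE 0.29; edgeR, adjusted p = 0.0425). Its call was lost without siTfap4 replicate 1 (adjusted p = 0.326), without siNeg replicate 1 (0.245) and without siZic2 replicate 1 or 2 (0.0619 and 0.0610).

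The genes that pass amino acid signals to mTORC1 at the lysosome, the longest list, held the most calls. Of 29 tested, 10 fell and 1 rose, which is 37.9% beside 15.9% of all genes. Their median was -0.08, beside -0.09 for all 123 pathway genes. Flcn, which acts on the Rag GTPases as a GTPase-activating protein, was at 34.6 and 36.4 CPM in siNeg and 4.34 and 8.68 in siTfap4 (-2.44, SE 0.32; edgeR, adjusted p = 0.000763). Rragc, one of these Rag GTPases, was at 66.4 and 66.2 CPM against 15.4 and 27.6 (-1.63, SE 0.27, adjusted p = 0.00241). Rraga, its partner in the Rag dimer, was at 246 and 292 CPM against 49.7 and 95.7 (-1.89, SE 0.33, adjusted p = 0.00293). All 3 stayed called in every fit that left out 1 library. The others called lower were Rragd, Fnip1, Nprl3, Wdr24, Seh1l, Sec13 and Castor1, and Kptn was higher. Of these 8, Sec13 stayed called in all 8 fits that left out 1 library (adjusted p at most 0.0239). The other 7 lost their calls without siTfap4 replicate 1 (adjusted p from 0.0723 for Rragd to 0.282 for Fnip1), and all of those 7 but Castor1 did so without siNeg replicate 1 (0.117 to 0.208). They include parts of GATOR1 (Nprl3) and of KICSTOR (Kptn), which hold mTORC1 back, and of GATOR2 (Wdr24, Seh1l, Sec13), which relieves GATOR1.

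Downstream of mTORC1, 17 effectors were tested and 2 fell. Ulk1, the kinase that starts autophagy and that mTORC1 holds back, was at 173 and 174 CPM in siNeg and 40.8 and 72.6 in siTfap4 (-1.61, SE 0.27; edgeR, adjusted p = 0.00241), and stayed called in every fit that left out 1 library. Eif4ebp2, a repressor of cap-dependent translation, was at 169 and 130 CPM against 80.5 and 89.5 (-0.81, SE 0.25, adjusted p = 0.0447). Eif4ebp2 kept its call in only 1 of the 8 fits that left out 1 library, the fit without siNeg replicate 2.

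Beside Foxo3, 10 FoxO factors and other Akt substrates were tested, with 1 higher and 1 lower. Bad, a cell death protein, was at 16.0 and 32.1 CPM in siNeg and 55.7 and 55.0 in siTfap4 (1.20, SE 0.34; edgeR, adjusted p = 0.0300). Chuk, a kinase of the NF-kappaB pathway, was at 70.9 and 37.5 CPM against 12.4 and 17.6 (-1.85, SE 0.36, adjusted p = 0.00510). Without siTfap4 replicate 1 neither passed (adjusted p = 0.124 and 0.0612), nor without siNeg replicate 1 (0.208 and 0.0575).

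Of 20 genes described as FoxO targets, 17 were tested, of which 5 fell and 1 rose (35.3%, beside 15.9% of all genes), with a median of -0.69. Gadd45a, a growth arrest and DNA damage gene, was at 121 and 93.4 CPM in siNeg and 24.1 and 31.1 in siTfap4 (-1.96, SE 0.31; edgeR, adjusted p = 0.00167), and stayed called in every fit that left out 1 library. Ccng2, a cyclin of cell cycle exit, had 2 counts in siTfap4 and 236 in siNeg, which were 180 and 56 by library. That is 1.15% of control with a counting interval of 0.138% to 4.18%, which leaves out the spread between libraries. Cited2, a transcriptional coregulator, was at 81.5 and 46.1 CPM against 23.9 and 27.4 (-1.31, SE 0.28, adjusted p = 0.00874), and did not pass without siTfap4 replicate 1 (adjusted p = 0.0731) or siNeg replicate 1 (0.107). Cdkn1b and Sod2 were the other genes called lower and Trib1 was higher. Sod2 stayed called in every fit that left out 1 library (adjusted p at most 0.0474). Cdkn1b and Trib1 lost their calls without siTfap4 replicate 1 (adjusted p = 0.133 and 0.317) and without siNeg replicate 1 (0.109 and 0.178), and Trib1 in 4 further such fits. FoxO activity was not measured, and Foxo3 itself did not pass the test.

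The genes whose pattern over the 8 libraries was most like that of Akt1, among 10132 with a mean of at least 5 CPM, were Atp6v1g1 (Pearson r of log2 CPM 0.996), Zfp213 (0.994) and Vps35l (0.994). For Pik3ca they were Tbk1 (0.989), Magi1 (0.976) and E130308A19Rik (0.973), and for Mtor Stam2 (0.995), Abr (0.989) and AC122442.1 (0.983). Such values are common here: 936 genes had an r of at least 0.9 with Akt1, 285 with Pik3ca and 762 with Mtor. With 8 libraries in 4 groups the values follow mainly the gap between siTfap4 and the rest, so they describe a shared pattern and no more.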

How the data were processed

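QuantSeq 3′ FWD libraries were made from 500 ng of RNA per sample, isolated with Trizol, per the labels' protocols. The authors deposited a table of raw, unnormalized counts, with 1 row per Ensembl gene and 1 column per library (8 libraries). The submitters' processing notes name Trim Galore and the build GRCm38. Not given in the sources used here are the aligner, the counter, its annotation release and strand setting, and whether molecular identifiers were used. Of 55421 identifiers, 55240 were matched to GENCODE M21 and 181 were not. The series design calls the libraries biological duplicates. The labels do not tie them to separate cultures, so p-values measure only the spread between these samples. Within groups, libraries differed beyond sampling noise (chi-square over degrees of freedom, 18.9 to 40.0).

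Genes were filtered with filterByExpr, scaled by TMM and fitted with edgeR 4.0.16 (quasi-likelihood test, R 4.3.3), all 8 libraries in 1 fit with 1 mean per group. Common dispersion was 0.0495, with 4 residual degrees of freedom. The Benjamini-Hochberg adjustment ran over the 14647 tested genes, with a threshold of 0.05. "Rose", "fell" and "called" mean past it. Levels are CPM, as mean ± SD. Intervals of fold changes are at the 95% level. The procedure was tested on simulated data.

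The 9 genes, pathway lists and marker lists were chosen with earlier results of these data known. The text names all 9 genes and, per pathway list in siTfap4 against siNeg, up to 3 called genes with the smallest p, or the gene with the smallest p if none was called. It names the 3 genes most like each of the 3 with the smallest p. Other called genes of the receptor, amino acid and FoxO target lists were named after their values were seen. Lists share Grb10, Sesn3, Irs2, Insr and Rictor. The alternatives were RLE size factors, plain library totals, keeping every gene with a count, requiring a mean of 5 CPM or more, fitting only the compared groups, a replicate block, each library left out, DESeq2 1.42.0, and protein-coding genes corrected for the GC content of their last 300 bases and for length. Protein-coding genes alone were added after seeing the data. With 1 library left out, the lone library of its group is assumed to vary like the others. Counting intervals treat reads as independent molecules, and those of Ccng2 and Inpp4a pool the libraries of each group.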

Additional observations from a re-analysis of the deposited data

How the results depend on the processing

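Of 918 values of the 9 genes under an alternative, 850 kept their direction and side of the threshold, 18 lost a call, 5 gained one and 45 changed sign, of which 0 were calls; none of the 45 exceeded 0.33 (log2). The cause of these changes was not tested. A call could be lost only for Akt1 in siTfap4 against each other group, and for Akt2 and Pik3ca in siTfap4 against siZic2. The other values had no call to lose, so the 850 do not measure how steady the calls were. With a replicate block, 2 of the 9 were called against siNeg and 2 against siWiz, Pik3ca joining Akt1 (-0.77, adjusted p = 0.0322, and -0.75, adjusted p = 0.0376). The block raised the share of all genes called against siNeg from 15.9% to 22.1%, so 2 of 9 there is near the background. Deviations of same-numbered libraries correlated from -0.04 to 0.33 between groups, so the numbers were not taken to pair the libraries. With 1 library left out, calls among the 9 ran from 0 to 1 against siNeg, 0 to 2 against siWiz and 0 to 3 against siZic2, and among the pathway genes from 10 to 41. Among all genes, 2330 were called, 504 without siTfap4 replicate 1 and 757 without siNeg replicate 1. The GC and length correction moved the median of all genes to 0.14 and the share of calls that were lower from 73.3% to 47.5% (68.2% for protein-coding genes uncorrected). Library totals alone gave 80.5%, and the groups alone gave 84.3%. Under that correction Akt1 was -1.40 (adjusted p = 0.0129), or -1.53 relative to the median.

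Changes of sign in siTfap4 against siNeg were Pdpk1 at 0.0024 with the 5 CPM filter, 0.30 with the GC and length correction and 0.0058 with protein-coding genes alone, Rptor at -0.044 with library totals, -0.0139 with the groups alone and -0.33 with the correction, and Tcl1 at 0.11 with the correction. Against siWiz, the correction gave -0.14 for Rptor and 0.26 for Tcl1. Against siZic2 it gave 0.29 for Pdpk1 and -0.29 for Rptor, and library totals gave -0.0383 for Tcl1. In siWiz against siNeg the correction gave 0.0128 for Pik3ca. In siZic2 against siNeg, Mtor was -0.0008 with the replicate block and Tsc2 0.0005 with no filter.

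Leaving out 1 library turned signs over these ranges. In siTfap4 against siNeg they were Pdpk1 -0.126 to 0.0717, Rptor -0.0968 to 0.106 and Foxo3 -0.257 to 0.0711. In siWiz they were Akt2 -0.29 to 0.32, Pik3ca -0.32 to 0.30, Tsc2 -0.175 to 0.0367, Foxo3 -0.057 to 0.266 and Tcl1 -0.33 to 0.13. In siZic2 they were Akt1 -0.20 to 0.35, Akt2 -0.48 to 0.11, Pik3ca -0.06 to 0.58, Mtor -0.0556 to 0.104, Tsc2 -0.0931 to 0.0643 and Tcl1 -0.395 to 0.0593. Tcl1 ran from -0.26 to 0.18 in siTfap4 against siWiz and from -0.20 to 0.26 against siZic2. In siWiz against siZic2 they were Tsc2 -0.164 to 0.0742, Foxo3 -0.132 to 0.012 and Tcl1 -0.15 to 0.32. Depth behind these values was 113 to 312 counts of Akt1 per siTfap4 library.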
